A study of Mus musculus with 19 samples.

Results

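The genes described here are the myogenic regulatory factors Myod1, Myog, Myf5 and Myf6, the satellite cell factor Pax7, the MEF2 factors Mef2a, Mef2c and Mef2d, and Cdh15, which encodes M-cadherin. They were chosen by name: every probe whose target name was one of these 9 symbols was taken, whatever its level. The symbols, and the gene lists further below, were chosen with earlier results of these data known. Counts of them set against all genes are therefore a description and not independent support. Of the 9 genes, 8 had a probe, 13 probes in all, out of 45281 probes on the array. Mef2a had no row under that symbol and is not analysed here. Of the 13 probes, 10 were detected on at least 3 arrays (detection p under 0.05, the chance that a signal at least as bright comes from negative control beads), and these stood for 6 genes among the 14654 tested. Gastrocnemius muscle of CD1 mice aged 2 months was profiled on 19 Illumina bead arrays in 5 groups. The untreated group had 3 arrays, and its labels give neither an injection nor surgery. The other groups had 4 arrays each and came from mice given an injection of 12 mg/kg of a 15-base oligonucleotide with locked nucleic acids (200 µl, tail vein), either directed against miR-210 (anti-miR-210) or with a scrambled sequence (scramble), 2 days before dissection of the femoral artery, with muscle taken 3 days later. For each oligonucleotide a group is labelled ischemic and a group non-ischemic. The labels do not say if non-ischemic muscle is the opposite limb of the operated mice, nor if replicates are separate animals. The p-values therefore cover the spread among these arrays alone, and part of it may be technical.

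Satellite cells are the stem cells of skeletal muscle and lie between the fibre and its sheath. In quiescence they carry the paired-box factor Pax7, and many also express Myf5; after injury they divide, switch on Myod1 and then Myog, leave the cell cycle and fuse into fibres. The myogenic factors are basic helix-loop-helix proteins that bind the E-box as dimers with E proteins, and MEF2 proteins act beside them on many muscle promoters. Myf6 (MRF4) is the factor most abundant in mature fibres, and M-cadherin is an adhesion protein at the contact between satellite cell and fibre and between fusing myoblasts. The microRNA miR-210 is induced by hypoxia, and the study asked how its inhibition alters the response of muscle to acute ischemia.

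The compounds that set the groups apart are shown first, with the microRNA they concern. A script aligned them: the 15 bases of anti-miR-210 pair with bases 2 to 16 of the RefSeq mature sequence (chr7:141221407-141221428, minus strand, GRCm38.p6), and the scramble oligonucleotide pairs with neither that stretch nor the seed. Capitals mark the seed, bases 2 to 8, in the microRNA and its complement in the inhibitor, each written 5′ to 3′.
mmu-miR-210-3p: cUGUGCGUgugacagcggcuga
anti-miR-210: gctgtcacACGCACA
scramble: cgtctagccacctag

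Promoters are shown for Myog and Cdh15, the members called higher in ischemic muscle after scramble; Cdh15 was not called after anti-miR-210. Each is the RefSeq window of 250 bases before the annotated start in GRCm38.p6, given 5′ to 3′ on the gene's strand. Capitals mark 2 motifs searched on both strands: the E-box CANNTG, which reads the same on either strand, and the MEF2 consensus with its last letter left free, a loosening chosen after the Myog window had been read. The Myog window lies at chr1:134289754-134290003 on the plus strand and the Cdh15 window at chr8:122848124-122848373 on the plus strand.
Myog: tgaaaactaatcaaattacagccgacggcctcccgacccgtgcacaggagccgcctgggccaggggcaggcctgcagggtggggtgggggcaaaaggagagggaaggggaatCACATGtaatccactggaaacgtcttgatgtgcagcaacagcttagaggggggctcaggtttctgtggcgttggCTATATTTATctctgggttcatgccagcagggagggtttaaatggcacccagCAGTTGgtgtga
Cdh15: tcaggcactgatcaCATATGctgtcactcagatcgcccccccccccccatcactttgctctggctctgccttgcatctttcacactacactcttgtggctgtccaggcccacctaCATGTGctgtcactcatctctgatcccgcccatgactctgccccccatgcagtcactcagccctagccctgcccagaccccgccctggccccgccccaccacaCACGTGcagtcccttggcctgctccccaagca
The Myog window holds 2 E-boxes, whose last bases lie 133 and 7 bases before the start, and 1 match to the loosened MEF2 motif between them. The Cdh15 window holds 3 E-boxes and no MEF2 match, and no motif overlaps another in either window. Of 32851 promoter windows of this length in the table, 66.2% hold at least 1 E-box, 31.8% at least 2 and 12.2% at least 3. The loosened MEF2 motif is in 7.03% of windows, the strict consensus in 2.92%, and an E-box together with the loosened motif in 4.85%. Of the 9 genes, 7 had a window in the table. The windows of Myf5, Pax7, Mef2a and Mef2d hold neither motif, and the first of the 3 Mef2c windows holds 2 E-boxes and 1 loosened MEF2 match. These matches describe letters in the windows and are not measured binding.

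The arrays carried the muscle they are labelled with: all 14 markers of mature fibres tested were detected in every group. Ischemia changed a large share of the transcriptome, with 51.6% of all genes tested called (limma, Benjamini-Hochberg adjusted p under 0.05) after scramble and 50.9% after anti-miR-210, so a call in these comparisons is the commoner outcome for a gene. Markers of other cell types moved in the same comparisons, and their part in the results below was not tested. Macrophage markers were called higher for 8 of 10 genes after scramble, where their summed linear level ran from 382 to 582 in non-ischemic and from 4224 to 12030.0 in ischemic muscle, and for 10 of 10 after anti-miR-210 (429 to 548 against 5867 to 16504). Markers of dividing cells were called higher for 7 of 7 tested in both, out of 10 in the list. None of the 7 was detected on any scramble non-ischemic array, and 5 were also detected on no untreated or anti-miR-210 non-ischemic array. Those 5 passed the detection filter through ischemic arrays alone, so the filter favoured their being called higher. Endothelial markers were called higher for 8 of 10 after scramble (summed level 2584 to 3288 against 6201 to 12619) and 7 of 10 after anti-miR-210 (1979 to 3558 against 4677 to 12354). Fibroblast markers were called higher for 4 of 7 and 7 of 7, and neutrophil markers for 6 of 7 and 5 of 7; the summed neutrophil level was 206 to 449.5 against 1977 to 8007 after scramble. Mature fibre markers were called lower for 8 of 14 after scramble (133186 to 146669 against 92433 to 116891) and 6 of 14 after anti-miR-210 (133228 to 157113 against 106688 to 114596). In each of these comparisons 1 of the 14 was called higher. In tissue RNA, fewer cells of a type and less RNA per cell cannot be told apart. Transcripts of liver stood at a mean log2 level of 7.91 to 11.55 on the 3 untreated arrays and 7.44 on scramble non-ischemic replicate 1, and at 4.32 to 4.84 on the remaining arrays. The mean deposited intensity of the scramble ischemic arrays was 154 ± 28.6 (SD, n = 4). It was below that of the scramble non-ischemic arrays, 226 ± 16.2, and of the anti-miR-210 ischemic arrays, 229 ± 37.7. Each difference had p = 0.0286 by exact two-sided permutation, and no smaller value is possible with 4 arrays a side. Single scramble ischemic arrays ran from 124 to 184 and did not overlap those groups (203 to 240 and 193 to 265). Array brightness as a covariate thus partly stands for the groups compared. A call after scramble that is lost under it cannot tell brightness and group apart.

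Neither Pax7 nor Myf5 gave a signal above negative control beads. Each has 1 probe, and each was detected on 0 of 19 arrays. The deposited intensity of the Pax7 probe ran from 67.6 to 84.3 and that of the Myf5 probe from 72.3 to 86.5, with lowest detection p-values of 0.175 and 0.0801. Both genes therefore stayed out of the test, and no direction can be given for either at this sensitivity. The satellite cell side of the set rests on Cdh15 and on the surface genes described further below.

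**Figure D1:**
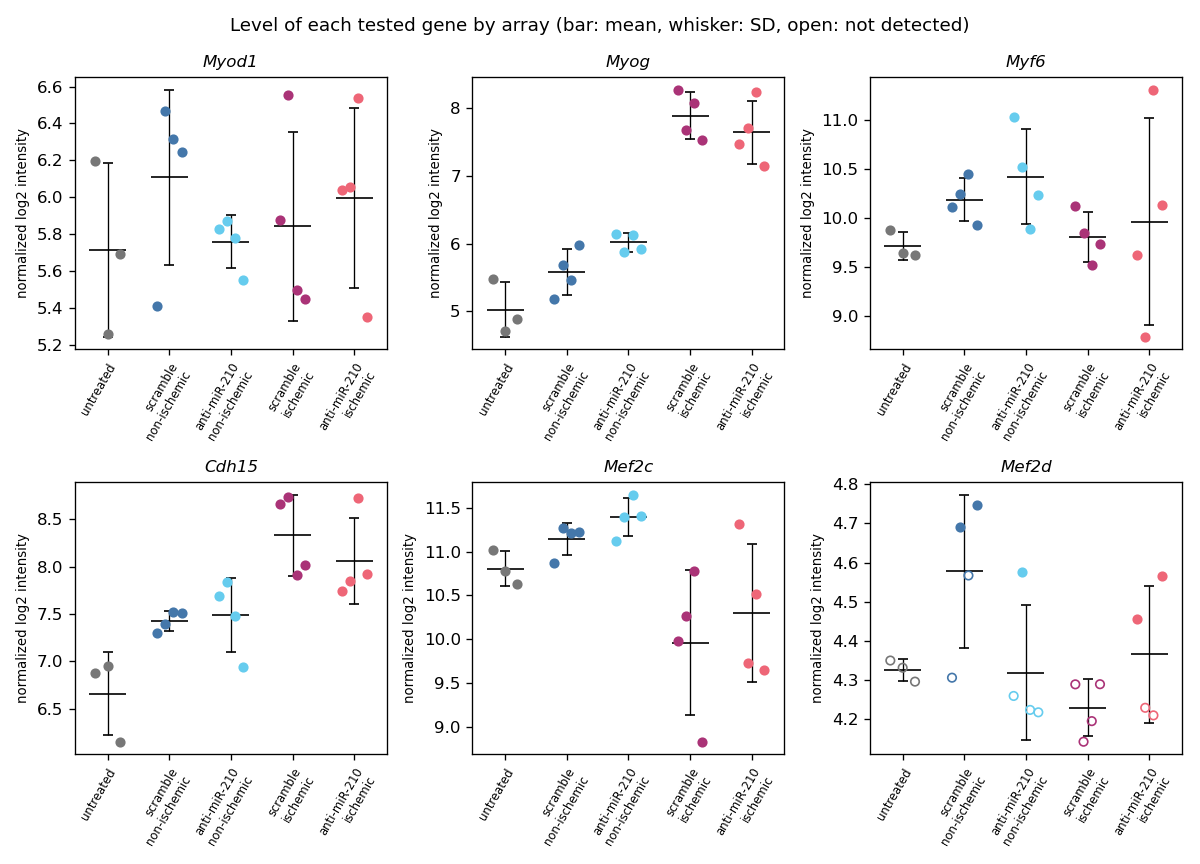
Normalized log2 intensity (y axis) of the 6 tested genes on each of the 19 arrays, by group (x axis); points are arrays, open where the probe was not detected, bars are group means and whiskers SDs. The Myog points of both ischemic groups lie above all non-ischemic and untreated points, the Mef2c points of the ischemic groups are spread widely, and most Mef2d points are open.

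Cdh15 was 1.87-fold higher in ischemic than in non-ischemic muscle after scramble. The levels below are normalized log2 intensities of its 1 probe, which was detected on all 19 arrays. The 3 untreated arrays read 6.88, 6.95 and 6.15. Scramble non-ischemic muscle read 7.30, 7.39, 7.52 and 7.51, and scramble ischemic muscle 8.66, 8.74, 7.91 and 8.02, so that every ischemic array stood above every non-ischemic one. After anti-miR-210 the non-ischemic arrays read 7.69, 7.84, 7.48 and 6.94 and the ischemic arrays 7.74, 7.85, 8.73 and 7.92, and here the groups overlapped: replicate 3 alone stood well clear of the non-ischemic arrays. The change after scramble was 0.90 ± 0.25 (log2 ± SE, adjusted p = 0.00519), and that after anti-miR-210 was 0.57 ± 0.25 (95% interval 0.04 to 1.10), which missed the threshold (adjusted p = 0.0663). The 2 changes differed by -0.33 with an interval of -1.08 to 0.41 (adjusted p = 0.832). The call after scramble was lost when arrays were scaled to a common median in place of quantile normalization (0.45, adjusted p = 0.223), and with array brightness as a covariate the change was 1.43 (adjusted p = 0.00193). After anti-miR-210 the change passed the threshold under cyclic loess (0.63, adjusted p = 0.0361), without non-ischemic replicate 2 (0.69, adjusted p = 0.0445) and without ischemic replicate 1 (0.68, adjusted p = 0.0469). Other settings moved it further from the threshold: array brightness as a covariate (0.42, adjusted p = 0.143) and median scaling (0.49, adjusted p = 0.142). On leaving out single arrays the change fell to 0.35 at the lowest, and over all settings its adjusted p reached 0.248.

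Myod1, which commits activated satellite cells to the muscle lineage, was detected on all 19 arrays and was called in no comparison. Its untreated arrays read 6.20, 5.26 and 5.69. Scramble non-ischemic muscle read 5.41, 6.47, 6.31 and 6.25, and scramble ischemic muscle 5.88, 6.56, 5.49 and 5.45. Anti-miR-210 non-ischemic muscle read 5.83, 5.87, 5.78 and 5.55, and anti-miR-210 ischemic muscle 6.04, 6.06, 6.54 and 5.35. All 5 groups overlapped their neighbours in the order of means, which ran only from 5.71 to 6.11. Ischemia moved Myod1 by -0.27 ± 0.28 after scramble (95% interval -0.86 to 0.33, adjusted p = 0.468) and by 0.24 ± 0.28 after anti-miR-210 (-0.36 to 0.83, adjusted p = 0.523). The intervals leave room for a change of nearly 0.9 log2 units in size, so these arrays do not show that Myod1 stayed level.

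Myog, whose product drives the final differentiation of myoblasts, gave the largest change on the probes that stood for the 6 genes: 4.99-fold higher in ischemic muscle after scramble and 3.08-fold higher after anti-miR-210. On the probe used, detected on all 19 arrays, the untreated arrays read 5.47, 4.70 and 4.89. Scramble non-ischemic muscle read 5.17, 5.68, 5.47 and 5.98 and scramble ischemic muscle 8.28, 7.69, 8.08 and 7.53. Anti-miR-210 non-ischemic muscle read 6.14, 5.88, 6.13 and 5.92, and anti-miR-210 ischemic muscle 7.47, 7.72, 8.24 and 7.14. Every ischemic array stood above every non-ischemic and untreated array, with 7.14 the lowest ischemic and 6.14 the highest non-ischemic level. The change was 2.32 ± 0.23 after scramble (adjusted p = 1.29e-07) and 1.63 ± 0.23 after anti-miR-210 (adjusted p = 9.44e-06). The response after anti-miR-210 was smaller by 0.69 log2 units on its estimate (95% interval -1.39 to -0.00), but over all genes this difference did not pass (unadjusted p = 0.049, adjusted p = 0.606). In the order of means, untreated (5.02), scramble non-ischemic (5.57) and anti-miR-210 non-ischemic (6.02) overlapped from neighbour to neighbour, as did both ischemic groups (7.64 and 7.89). The call held under every alternative tried, but its size fell by a factor of 1.5 or more without background correction (to 1.41 after scramble and 1.02 after anti-miR-210), on the mean of both Myog probes (1.30 and 0.92) and, after scramble, on the authors' deposited values (1.55). The second Myog probe was detected on 8 of 19 arrays and stood at 4.20 to 5.10 over all of them, and its own change of 0.29 ± 0.18 after scramble was not called (adjusted p = 0.201).

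Myf6, the factor of mature fibres, was detected on all 19 arrays and was called in no comparison. Its untreated arrays read 9.88, 9.65 and 9.62. Scramble non-ischemic muscle read 10.11, 10.24, 10.45 and 9.93, and scramble ischemic muscle 10.13, 9.85, 9.52 and 9.73. Anti-miR-210 non-ischemic muscle read 11.04, 10.53, 9.89 and 10.24, and anti-miR-210 ischemic muscle 9.62, 8.79, 11.31 and 10.14. The last group held both the lowest and the highest Myf6 array of the study, with an SD of 1.06 against 0.14 to 0.49 in the other groups. The change was -0.38 ± 0.36 after scramble (95% interval -1.13 to 0.37, adjusted p = 0.407) and -0.46 ± 0.36 after anti-miR-210 (-1.21 to 0.29, adjusted p = 0.31). Leaving out anti-miR-210 ischemic replicate 3, the array at 11.31, the latter became -0.91 and passed the threshold (adjusted p = 0.00996). With median scaling Myf6 was called lower in both, by -1.11 after scramble (adjusted p = 0.00904) and -0.85 after anti-miR-210 (adjusted p = 0.0334), where that scaling put the median of all genes at 0.04 and -0.39. That replicate was also the highest array of its group for Myod1, Myog and Cdh15.

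Mef2c, a MEF2 factor of differentiated muscle, fell in ischemic muscle by 1.18 ± 0.35 on the log2 scale after scramble (2.27-fold lower, adjusted p = 0.00773) and by 1.09 ± 0.35 after anti-miR-210 (2.13-fold lower, adjusted p = 0.0133). On the probe used for the gene, the brightest of 5, the untreated arrays read 11.02, 10.77 and 10.63. Scramble non-ischemic muscle read 10.87, 11.27, 11.21 and 11.22, and scramble ischemic muscle 9.98, 10.26, 10.78 and 8.83, all below the non-ischemic arrays. Anti-miR-210 non-ischemic muscle read 11.13, 11.40, 11.65 and 11.40, and anti-miR-210 ischemic muscle 11.32, 9.72, 10.52 and 9.65, where replicate 1 lay within the non-ischemic range. The ischemic groups had SDs of 0.82 and 0.79, against 0.18 to 0.22 in the other 3 groups. After anti-miR-210 the call was lost without ischemic replicate 2 (adjusted p = 0.0528) or without ischemic replicate 4 (adjusted p = 0.0544). After scramble it was lost with array brightness as a covariate (-0.97 ± 0.50, adjusted p = 0.157), and median scaling gave a larger fall (-1.98). As said above, brightness did not overlap between the groups compared here, so this lost call cannot tell brightness and group apart.

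The other Mef2c probes detected on every array are given next. On probe ILMN_2887992 scramble non-ischemic muscle read 9.41, 9.73, 9.67 and 10.02 and scramble ischemic muscle 8.38, 8.54, 9.03 and 6.82. The anti-miR-210 arrays read 9.63, 10.03, 9.93 and 10.25 non-ischemic and 9.44, 8.40, 8.59 and 7.65 ischemic. On another, ILMN_1214950, the scramble arrays read 10.23, 10.47, 10.22 and 10.50 non-ischemic and 8.04, 8.09, 8.77 and 5.69 ischemic. The anti-miR-210 arrays read 10.43, 9.73, 10.70 and 10.59 non-ischemic and 9.57, 8.31, 9.23 and 6.71 ischemic. On both of these probes the ischemic and non-ischemic groups did not overlap, and replicate 4 was the lowest ischemic array after either oligonucleotide, as on the probe used for the gene. With every kept probe tested on its own, which called 48.9% of probes after scramble and 48.5% after anti-miR-210, ILMN_1214950 changed by -2.71 ± 0.55 (adjusted p = 0.000421) and -1.91 ± 0.55 (adjusted p = 0.00744), and ILMN_2887992 by -1.51 ± 0.38 (adjusted p = 0.00246) and -1.44 ± 0.38 (adjusted p = 0.00367). Within arrays, the change of ILMN_1214950 after scramble exceeded that of the probe used for the gene by -1.52 log2 units, and the 4 ischemic arrays did not overlap the 4 non-ischemic ones in this difference (exact two-sided permutation p = 0.0286, 0.0571 after adjustment over the 6 pairs compared, a pattern noticed after the values were seen). The same difference after anti-miR-210 was -0.81 (exact p = 0.0857, adjusted 0.129). The other pairs of these probes after scramble had the same exact permutation p = 0.0286 (adjusted 0.0571). Their differences were -1.19 for ILMN_1214950 against ILMN_2887992 and 0.33 for the probe used for the gene against ILMN_2887992. Which transcripts each probe reads was not looked up, as no probe map was used here. Of the last 2 probes, ILMN_1220270 was detected on 7 arrays and not called, and ILMN_2520812 was detected on none.

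**Figure D2:**
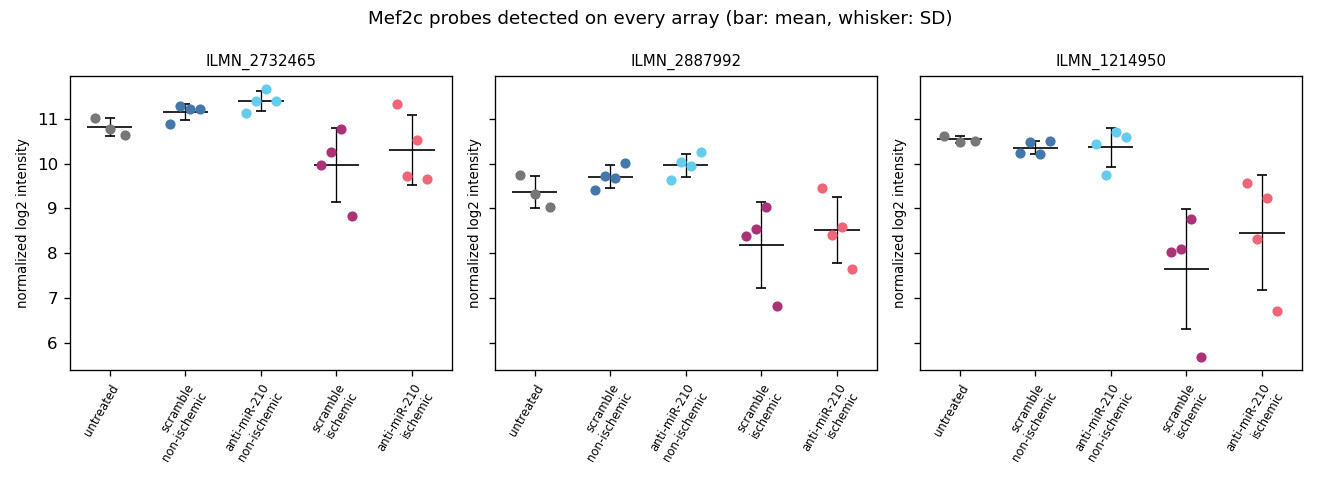
Normalized log2 intensity (y axis) of the 3 Mef2c probes detected on every array, by group (x axis); points are arrays, bars group means and whiskers SDs. Heights of different probes are not comparable; on each probe the ischemic arrays spread downward, with replicate 4 lowest in both ischemic groups, down to 5.69 on ILMN_1214950.

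Mef2d lay at the limit of detection. Its 1 probe was detected on 5 of 19 arrays: 2 of scramble non-ischemic muscle, 1 of anti-miR-210 non-ischemic muscle, 2 of anti-miR-210 ischemic muscle, and none of the untreated or scramble ischemic arrays. The scramble non-ischemic arrays read 4.31, 4.69, 4.57 and 4.75 and the scramble ischemic arrays 4.29, 4.14, 4.19 and 4.29. The groups did not overlap and the change was called (-0.35 ± 0.13, adjusted p = 0.0278), but the probe was not well above background on any scramble ischemic array. With those arrays set to the detection floor, the fall was 1.02-fold. As only 2 of the 4 scramble non-ischemic arrays detected the probe, this is not a firm bound, and the size of the fall is not known. The call was lost under 4 of 15 alternatives and without any one of 4 of the 8 arrays compared (scramble non-ischemic replicate 2 or 4, scramble ischemic replicate 2 or 3), with adjusted p-values of 0.0517 to 0.666. After anti-miR-210 the change was 0.05 ± 0.13 (adjusted p = 0.801); it turned to -0.59 under median scaling, which placed the median of all genes at -0.39.

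By count, the ischemia comparison after scramble called 2 of 6 genes higher (Myog, Cdh15) and 2 lower (Mef2c, Mef2d), against 51.6% of all genes called (27% higher and 24.6% lower), and 4 of 6 had groups that did not overlap, against 48.4% of all genes. After anti-miR-210, 1 of 6 was called higher (Myog) and 1 lower (Mef2c), against 50.9% of all genes (26.5% higher, 24.4% lower), and 1 had groups that did not overlap, against 43.9%. With 6 genes these shares cannot be told from those of all genes, nor from each other, and no such test was run. The genes called after scramble alone were Cdh15, near the threshold after anti-miR-210 (limma adjusted p = 0.0663), and Mef2d, at the limit of detection. The 6 genes did not move one way: the median change was -0.31 after scramble and 0.14 after anti-miR-210, beside 0.01 over all genes in both.

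**Figure D3:**
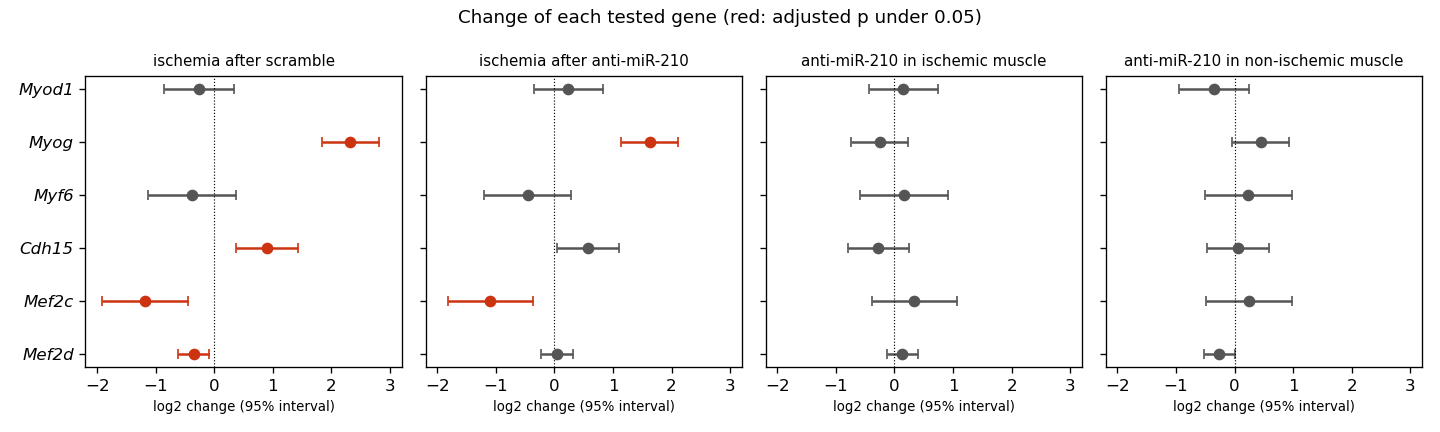
Change of each tested gene on the log2 scale (x axis, points) with its 95% interval (bars) in 4 comparisons (panels); red marks an adjusted p under 0.05. Myog (2.32 and 1.63) and Mef2c (-1.18 and -1.09) were called in both ischemia panels, Cdh15 and Mef2d in the first alone, and no gene in either panel that sets anti-miR-210 against scramble.

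Whether these genes differed between the oligonucleotides was asked by setting anti-miR-210 against scramble. Of the macrophage markers, 2 of 10 were called higher in ischemic muscle (median change 0.69), beside 1.09% of all genes called. No neutrophil, endothelial, fibroblast or mature fibre marker was called there (medians -0.41, -0.36, 0.21 and 0.07). The part of such markers in the values below was not tested. In ischemic muscle 0 of 6 genes were called by limma, against 1.09% of all genes (159, with 2333 at an unadjusted p under 0.05), and none of the 6 reached an unadjusted p under 0.05. Myog was lower by 0.25 log2 units on its estimate, with a 95% interval of -0.74 to 0.24, and Cdh15 by 0.27 (-0.80 to 0.25). Mef2c stood at 0.34 (-0.39 to 1.07), Myf6 at 0.16 (-0.59 to 0.91), Myod1 at 0.15 (-0.44 to 0.75) and Mef2d at 0.14 (-0.13 to 0.40). The groups overlapped for all 6, where 5.37% of all genes had groups that did not. The intervals reach about 1 log2 unit for Mef2c and Myf6 and less for the others, and differences within them are not shown to be absent. The estimates also moved with the scaling and the covariate: under median scaling Myog stood at 0.09, Cdh15 at 0.06 and Mef2d at -0.53, and with array brightness, which differed between these groups, as a covariate Myog stood at -0.65, Cdh15 at -0.81 and Myod1 at -0.42, none of them called. In non-ischemic muscle 0 of 6 were called as well, against 0.0205% of all genes (3, with 947 at an unadjusted p under 0.05). Myog was at 0.44 (-0.04 to 0.93, unadjusted p = 0.0725) and Mef2d at -0.26 (-0.53 to 0.01). The difference between both ischemia responses called 0 of 6, against 0.0205% of all genes (3, with 1202 at an unadjusted p under 0.05), with Myog at -0.69 and Mef2d at 0.40 (0.02 to 0.77, unadjusted p = 0.0409, adjusted p = 0.578). These comparisons share arrays with those of ischemia above, so their values are not independent of them.

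Non-ischemic muscle of injected mice was also set against untreated muscle. After scramble 0 of 6 genes were called by limma, against 2.87% of all genes (2148 at an unadjusted p under 0.05). Cdh15 was 0.77 ± 0.27 higher on its estimate (adjusted p = 0.158), and 2 of 6 genes, Cdh15 and Myf6, had groups that did not overlap, against 16.6% of all genes; Myog was at 0.55 ± 0.25 (adjusted p = 0.312). After anti-miR-210 1 of 6 was called, and higher, against 5.68% of all genes called and 2.58% higher: Myog rose by 1.00 ± 0.25 (1.99-fold, adjusted p = 0.0239), and its 4 arrays did not overlap the 3 untreated ones. Groups did not overlap for 3 of 6 genes, Myog, Myf6 and Mef2c, against 18.5% of all genes. Cdh15 was at 0.83 ± 0.27 (adjusted p = 0.081), and was called with array brightness as a covariate (1.11, adjusted p = 0.017). Both comparisons use the same 3 untreated arrays, the arrays that carry liver transcripts. With the liver level as a covariate, an alternative added after the data had been seen, the Myog change after anti-miR-210 was 0.17 ± 0.50 (adjusted p = 1.00). After scramble that covariate gave -0.16 ± 0.45 for Myog, 0.12 ± 0.49 for Cdh15 and -0.65 ± 0.52 for Myod1, which was at 0.40 ± 0.31 without it. With it limma called 0 of all genes in either comparison (590 after scramble and 550 after anti-miR-210 at an unadjusted p under 0.05). The liver level of untreated arrays (7.91 to 11.55) did not overlap that of non-ischemic arrays after scramble (4.32 to 7.44) or anti-miR-210 (4.43 to 4.64). The covariate thus largely stands for the groups compared, and a call lost under it cannot tell liver transcripts and group apart. The call of Myog after anti-miR-210 was also lost under 6 other alternatives (0.40 to 1.00) and without any one of 4 of the 7 arrays compared: untreated replicate 2 or 3, or anti-miR-210 non-ischemic replicate 1 or 3 (adjusted p from 0.0563 to 0.115).

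The genes whose level followed each member most closely are given with Pearson's r over the 19 arrays, as a description, since arrays of a group share their treatment. Closest to Myog were Rab5c, an endosomal GTPase (r = 0.944), Prmt1, an arginine methyltransferase (r = 0.942), and A630097D09RIK (r = 0.942). Cdh15 was followed by Itga7, the laminin-binding integrin of muscle (r = 0.920), Macf1, a linker of microtubules and actin (r = 0.886), and Gm5422 (r = 0.881). Closest to Mef2c were Naa30, an N-terminal acetyltransferase (r = 0.920), Cacna2d1, a calcium channel subunit (r = 0.914), and Tead1, a factor of muscle promoters (r = 0.896). The values for Myf6 were lower, with Hdac4, a deacetylase that restrains MEF2 factors, at 0.810 and Orc5 at 0.790. Those for Myod1 (Igdcc4, r = 0.711) and Mef2d (Otog, r = 0.735) were lower still. Between members, Myog and Cdh15 had r = 0.845 over all arrays and 0.408 once the group means were removed. The highest values within groups were those of Myod1 and Myog (r = 0.199 over all arrays and 0.615 within groups) and of Myf6 and Cdh15 (0.252 and 0.614). The lowest was that of Myog and Mef2d (-0.344 and -0.061). Myog and Mef2c changed sign, from -0.529 over all arrays to 0.376 within groups.

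Counts of the lists around the members are read against the shares of all genes called in the ischemia comparisons, 27% higher and 24.6% lower after scramble and 26.5% higher and 24.4% lower after anti-miR-210. Over the 100 genes of the 7 lists, 30 were called higher and 26 lower after scramble and 36 higher and 25 lower after anti-miR-210. The first list holds partners and inhibitors of myogenic factors. Of 18 genes tested, 7 were called higher and 2 lower after scramble, and 10 higher and 1 lower after anti-miR-210, with 7 called higher in both (7 of 7 and 7 of 10). After scramble the 9 of 18 called lie near the 51.6% of all genes, and the 7 higher became 4 with median scaling, without scramble non-ischemic replicate 3 or without scramble ischemic replicate 4. After anti-miR-210 the 1 lower became 4 with median scaling and 2 without non-ischemic replicate 4. The median change was 0.30 and 0.69, or 0.63 in the latter with undetected genes at their bound. Id2, which ties up E proteins, changed by 2.91 ± 0.34 (adjusted p = 9.35e-07) after scramble and 2.82 ± 0.34 after anti-miR-210 on the brightest of its 3 probes. The lowest of the 3 changed by 0.10 and 0.26, and the mean of the probes by 1.37 and 1.47, still called. Snai2, a repressor that competes for E-boxes, changed by 1.94 ± 0.19 (adjusted p = 8.17e-08) and 1.63 ± 0.19. Lower after scramble were Bhlhe40, a repressor that dimerizes with basic helix-loop-helix proteins (-0.62 ± 0.19), and Hes1, a Notch target (-0.58 ± 0.22). The call of Hes1 was lost under 4 of 16 alternatives and on leaving out any one of 5 of the 8 arrays, and that of Bhlhe40 with cyclic loess or with array brightness as a covariate; after anti-miR-210 Bhlhe40 was lower (-0.76 ± 0.19) and Hes1 was not called (0.07 ± 0.22).

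Factors upstream of the myogenic genes were called lower for 6 of 12 and higher for 1 of 12 after scramble, and lower for 6 and higher for 3 after anti-miR-210, with 5 lower in both, beside 24.6% and 24.4% of all genes lower. The median change was -0.38 and -0.20, and -0.26 and -0.31 with undetected genes at their bound. Six2, a homeobox factor, changed by -1.96 ± 0.24 and -2.39 ± 0.24. Meox1, a homeobox factor of the somite, was called higher (0.77 ± 0.26 and 1.26 ± 0.26); after scramble its call was lost with brightness as a covariate and without scramble non-ischemic replicate 1, an array with liver transcripts (0.63, adjusted p = 0.0643).

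Co-factors of MEF2 and the kinases and phosphatases that act on it were called lower for 10 of 18 and higher for 2 of 18 after scramble, and lower for 9 and higher for 1 after anti-miR-210, with 8 lower in both, beside 24.6% and 24.4% of all genes lower. With array brightness as a covariate the 10 lower after scramble became 5. After anti-miR-210 the 1 higher became 2 without any one of 4 arrays, non-ischemic replicate 2 or 4 or ischemic replicate 1 or 4. The median change was -0.46 and -0.50, and Mef2c itself fell in the same comparisons. Mature fibre markers had medians of -0.74 and -0.56 there, and any link between these falls was not tested. Camk2g, a calmodulin-dependent kinase, changed by -2.02 ± 0.22 (adjusted p = 3.36e-07) and -1.97 ± 0.22. Ppp3cb, a catalytic subunit of calcineurin, changed by -1.14 ± 0.12 (adjusted p = 1.97e-07) and -0.67 ± 0.12. Hdac7, a class II deacetylase that represses MEF2, was called higher (1.33 ± 0.24 and 0.83 ± 0.24). Camk2d was called higher after scramble (0.60 ± 0.20, adjusted p = 0.018), but 2 of its 6 probes shared that sign, and the call was lost on the mean of its probes, with brightness as a covariate and without scramble ischemic replicate 4.

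Among surface and other genes by which satellite cells are recognised, 7 of 15 were called higher and 3 lower after scramble and 7 higher and 2 lower after anti-miR-210, with 6 higher in both, beside 27% and 26.5% of all genes higher. After scramble the 7 higher became 4 with median scaling, and the 3 lower became 1 with array brightness as a covariate. Sdc3, the heparan sulfate proteoglycan syndecan-3, changed by 2.68 ± 0.23 (adjusted p = 1.79e-08) and 3.65 ± 0.23, and Cxcr4, a chemokine receptor, by 2.61 ± 0.19 (adjusted p = 1.77e-09) and 2.59 ± 0.19. Chodl, a C-type lectin, changed by -2.50 ± 0.21 (adjusted p = 1.78e-08) and -1.86 ± 0.21. Dag1, which encodes dystroglycan, changed by -0.71 ± 0.21 and -0.81 ± 0.21, and its call after scramble was lost with brightness as a covariate. Macrophages, endothelium and fibroblasts also express several of these genes, among them Cxcr4, Vcam1, Cd34 and Cav1, and markers of those cells rose in the same comparisons as given above; their part here was not tested.

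Fusion genes moved both ways, with 3 of 12 called higher and 2 lower after scramble and 4 higher and 3 lower after anti-miR-210, where 51.6% and 50.9% of all genes were called. The 3 higher after scramble became 5 without scramble ischemic replicate 4 or with array weights, and median scaling turned the 2 lower into 4 and the 4 higher after anti-miR-210 into 2. The median change was 0.21 and 0.07, and 0.08 and -0.03 with undetected genes at their bound. Myof, which encodes the membrane repair and fusion protein myoferlin, changed by 3.66 ± 0.21 (adjusted p = 1.03e-10) and 4.46 ± 0.21. Adam12, a metalloprotease of fusing myoblasts, was not detected on any non-ischemic array of either oligonucleotide and was at least 1.39-fold higher after scramble (adjusted p = 0.00364) and at least 1.41-fold higher after anti-miR-210 (adjusted p = 0.0033); the call after scramble was lost with brightness as a covariate and that after anti-miR-210 with median scaling. Cav3, the caveolin of muscle, changed by -1.20 ± 0.21 and -1.69 ± 0.21, and Jam2, a junctional adhesion molecule, by -1.07 ± 0.16 and -0.77 ± 0.16.

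Genes of newly formed or denervated fibres were called higher for 8 of 17 after scramble and after anti-miR-210, the same 8 genes in both, and lower for 1 and 2, where 51.6% and 50.9% of all genes were called. The 2 lower after anti-miR-210 became 1 without any one of 6 of the 8 arrays compared, all but non-ischemic replicate 3 and ischemic replicate 1. The median change was 0.91 and 0.85. Chrng, the gamma subunit of the fetal acetylcholine receptor, changed by 3.84 ± 0.44 (adjusted p = 6.91e-07) and 3.92 ± 0.44. Ankrd1, an ankyrin repeat protein of stressed muscle, changed by 3.08 ± 0.45 (adjusted p = 1.1e-05) and 2.99 ± 0.45. Xirp1, an actin-binding protein, was lower (-1.33 ± 0.37 and -2.80 ± 0.37), and its call after scramble was lost with brightness as a covariate.

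Secreted signals to satellite cells and their receptor moved both ways, 2 of 8 higher and 2 lower after scramble and 3 higher and 2 lower after anti-miR-210, where 51.6% and 50.9% of all genes were called. Hgf, the factor that activates quiescent satellite cells, rose by 1.78 ± 0.25 (adjusted p = 8.46e-06) after scramble, and after anti-miR-210, where no non-ischemic array detected it, it was at least 2.12-fold higher (adjusted p = 0.000175). Fst, the myostatin antagonist follistatin, changed by 0.75 ± 0.20 and 1.43 ± 0.20, the former lost with brightness as a covariate. Acvr2b, a myostatin receptor, changed by -1.36 ± 0.18 and -1.46 ± 0.18. Fgf6, a growth factor of muscle, was detected on no scramble ischemic array and was at least 2.71-fold lower there (adjusted p = 8.46e-08), and changed by -1.44 ± 0.16 after anti-miR-210. Over the same 100 genes, limma called 0 when anti-miR-210 was set against scramble in ischemic muscle (10 at an unadjusted p under 0.05), 0 in non-ischemic muscle (14) and 0 in the difference between the ischemia responses (14), beside 1.09%, 0.0205% and 0.0205% of all genes called. Against untreated muscle 4 were called higher and 0 lower after scramble, beside 2.87% of all genes called, named here after their values were seen: Ppp3ca, another calcineurin subunit (0.55 ± 0.14), Ppp3cb (0.61 ± 0.13), Xirp1 (1.75 ± 0.40) and Fgf6 (0.90 ± 0.17). After anti-miR-210 6 were called higher and 0 lower, beside 5.68% of all genes: Ppp3ca, Xirp1 and Fgf6 again, with Eya1 (0.98 ± 0.19), Lbx1 (0.79 ± 0.20) and Akap6 (0.86 ± 0.23). Both counts use the untreated arrays that carry liver transcripts, and with the liver level as a covariate 0 of the 100 were called in either comparison (7 and 6 at an unadjusted p under 0.05), as 0 of all genes were. As said above, that covariate largely stands for the groups compared, so these lost calls cannot tell liver transcripts and group apart.

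**Figure D4:**
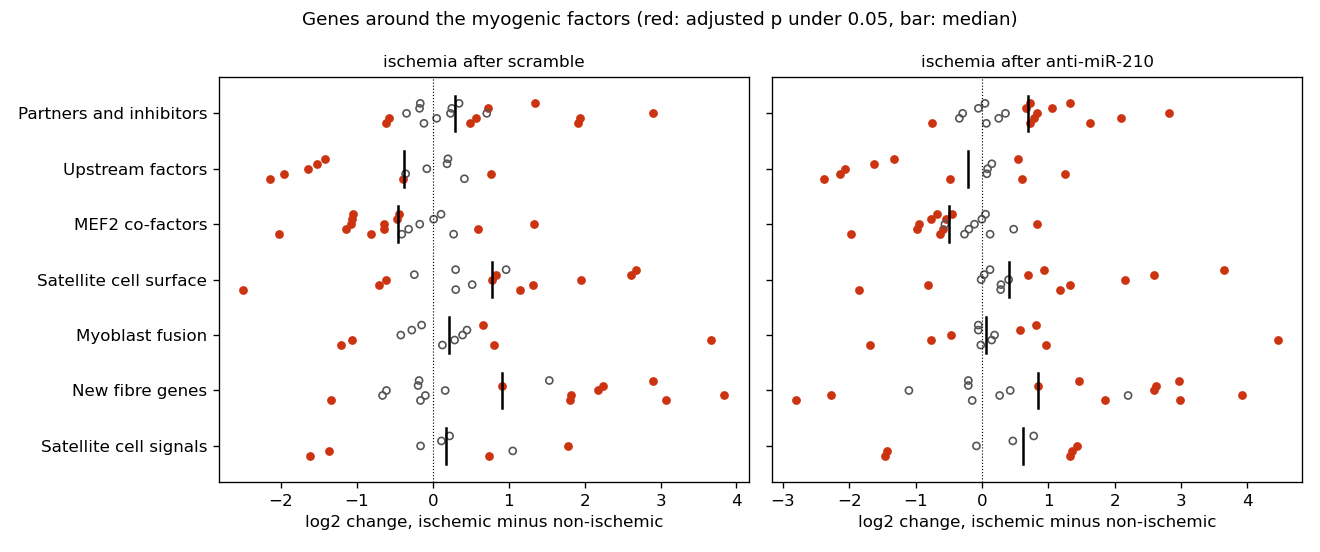
Log2 change of each tested gene (x axis, points) in the 7 lists around the myogenic factors (rows), after scramble (left) and after anti-miR-210 (right); red points have an adjusted p under 0.05 and bars are list medians. The median of the new fibre genes stands at 0.91 and 0.85 and that of the MEF2 co-factors at -0.46 and -0.50.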

How the data were processed

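The authors deposited the mean bead intensity of each probe on each array beside its detection p-value, with no normalization visible in the values; per the labels' protocols, RNA was extracted with Trizol and RNeasy columns and biotinylated cRNA made with an Ambion MessageAmp kit. The authors' own processed intensity table, also deposited, has the same quantiles on all 19 arrays and served as an alternative. No source used here names the export software, and no slide or batch is labelled. The number of arrays, not read depth, limits precision. No 2 arrays held identical values.

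Background was corrected and arrays normalized with neqc (offset 16, quantile, log2) in limma 3.58.1 under R 4.3.3. Probes with detection p under 0.05 on at least 3 of 19 arrays were kept (21083 of 45281), and the probe with the highest mean stood for a gene. Probe names were updated through a RefSeq gene table: 27400 probes carried a current symbol, 8300 an older one, and the rest kept their name. A linear model with 5 group means and empirical Bayes moderation was fitted to all arrays, with Benjamini-Hochberg adjustment over 14654 genes in each of 7 comparisons and 0.05 as threshold; the fit was tested on simulated data. Where no array of a group detected a probe, a bound is given, set by the lowest signal among detected probes (4.40 to 4.65 on the log2 scale). Within-array differences and array brightness were compared by exact permutation tests. Plots come from matplotlib 3.10.9 (Python 3.11.15).

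Alternatives were another background correction, offset, normalization, filter, probe choice, set of samples, covariate, replicate block and array weighting, the authors' table, and leaving out each array. The named genes are the 9 members, the 3 genes most correlated with each, and for each of 7 lists the 4 called genes at both ends of the change after scramble (2 an end). Of these, 1 gene is not reported here. The members and lists were chosen with earlier results of these data known. Replicate numbers were not taken as pairs. Deviations of same-numbered scramble arrays correlated at 0.05 to 0.17, and of anti-miR-210 arrays at 0.09 to 0.24, not all above 0.1. Each of these pairs still correlated best with its own number, as described below, so pairing was not excluded.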

Additional observations from a re-analysis of the deposited data

Results flagged for a closer look

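Of 24 groups of 4 arrays tested for an outlying array over the 6 genes, 2 held one, near the 1 in 20 that chance gives. Mef2c on scramble non-ischemic replicate 1 read 10.87, with the other 3 arrays of the group between 11.21 and 11.27; the same array carried liver transcripts, whose part was not tested. Mef2d on anti-miR-210 non-ischemic replicate 2 read 4.58, the one array of its group on which the probe was detected, with the others between 4.22 and 4.26.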

How the results depend on the processing

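Over 16 alternatives that leave out no single array, of which 14 were planned, the count of called members moved as follows. After scramble it was 4, but 2 with array brightness as a covariate and 3 with median scaling, cyclic loess, the stricter filter or only the groups compared; leaving out single arrays gave 3 to 4. After anti-miR-210 it was 2, but 4 with median scaling and 3 with cyclic loess; leaving out single arrays gave 1 to 3, with 1 without ischemic replicate 2 or 4. It stayed at 0 under every alternative and every array left out for anti-miR-210 against scramble in either muscle and for the difference of the ischemia responses. For scramble non-ischemic against untreated muscle it was 0, but 1 with array brightness as a covariate and 2 with array weights. For anti-miR-210 non-ischemic against untreated muscle it was 1, but 2 with array brightness as a covariate, and 0 without background correction, with an offset of 50, with no filter, on the mean of kept probes, on the authors' values, with only the groups compared and with the liver level as a covariate; leaving out single arrays gave 0 to 2. Mef2d after anti-miR-210 changed sign under median scaling, to -0.59, or -0.20 relative to the median of all genes there. Of the 42 changes of members (6 genes in 7 comparisons), the estimate of 20 changed sign under at least 1 alternative and of 9 on leaving out a single array, 21 in all, and none of these was called in the results above; 5 of 6 did so for anti-miR-210 in ischemic muscle under an alternative, and Myod1 after scramble went to 0.29 with array brightness as a covariate. The cause of these shifts was not tested. The replicate block, which joined same-numbered arrays over all 5 groups, changed no call of a member. The counts were 4 and 2 in the ischemia comparisons, with 7519 and 7413 genes called in all against 7556 and 7460. Each of the 8 pairs of same-numbered ischemic and non-ischemic arrays of an oligonucleotide correlated best with its own number. This is a hint from the data and not from the design. Between oligonucleotides, and with untreated arrays, most numbers did not match in this way. A block by oligonucleotide and number was not fitted, so the effect of such a pairing on the calls was not tested. Counts over all genes also moved: after scramble to 4820 with array brightness as a covariate, and for anti-miR-210 in ischemic muscle, 159, from 1 to 3678 over alternatives and from 14 to 1182 on leaving out single arrays. Of 50 called changes of the named list genes, 29 moved by over 1.5 times without background correction, 27 on the authors' values, 21 with an offset of 50, and none reversed. Probes near the floor of detection, Mef2d, Myf5 and Pax7, limit what these arrays can show.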
